A study of Mus musculus with 54 samples.

Results

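Lymphocyte and MHC class II genes were followed across the aged kidney, brain and heart of mice treated with Cmpd60, a benzamide inhibitor of histone deacetylases 1 and 2. The set holds 10 of the 54232 genes counted in each library, chosen by symbol with earlier results of these data known. These are Ighm, Igkc, Jchain, Cd79a, Cd74, H2-Aa, H2-Ab1, H2-Eb1, Cd3e and Ptprc, and each matched a single Ensembl identifier. The question was how much lymphocyte and antigen presentation RNA each aged tissue held, and whether that amount moved with Cmpd60.

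The 34 aged libraries came from naturally aged male BL6 mice of about 20 months, with no transgene or other allele named. They received daily intraperitoneal injections, for 14 days, of Cmpd60 at 22.5 mg/kg or of its vehicle, a mix of DMSO, PEG400 and saline. There were 6 Cmpd60 and 5 vehicle libraries of kidney, 6 and 6 of brain, and 5 and 6 of heart, and libraries are named here by the library number in their label. The labels do not tell which kidney, brain and heart came from the same mouse. A further 20 brain libraries came from mice of 6 to 7 months that carry the APPSWE transgene, and from their littermates, and enter no treatment comparison here.

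As background, B cells build their antigen receptor from an immunoglobulin heavy chain, such as the mu chain of IgM, and a light chain, and the signalling protein CD79A is part of that receptor. Plasma cells, their descendants, secrete large amounts of immunoglobulin, and the J chain joins IgM and IgA into polymers. MHC class II molecules are pairs of alpha and beta chains on dendritic cells, macrophages and B cells that show peptides to helper T cells, and the invariant chain CD74 guides them through the cell. Their genes are switched on together by the coactivator CIITA through promoter elements called the X and Y boxes. Lymphocytes gather in the kidney and other organs of old mice, whereas the healthy brain holds few.

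The class II promoters show what these co-regulated genes share in sequence. RefSeq promoter windows (GRCm38.p6) were at hand for 6 of the 10 genes, and not for Ighm, Igkc, Cd74 and H2-Ab1. H2-Aa and H2-Eb1 encode the alpha chain of I-A and the beta chain of I-E. The 160 bases next to the windows' transcription start are given below, 5′ to 3′ on the strand of the gene, for H2-Aa at chr17:34287824-34287983 on the minus strand and for H2-Eb1 at chr17:34305707-34305866 on the plus strand. Capitals mark matches to CTGATTGG (Y box), GCAAC (core of the X box), TGACGTCA and TGATG (long and short forms of the X2 box) read on that strand.
H2-Aa: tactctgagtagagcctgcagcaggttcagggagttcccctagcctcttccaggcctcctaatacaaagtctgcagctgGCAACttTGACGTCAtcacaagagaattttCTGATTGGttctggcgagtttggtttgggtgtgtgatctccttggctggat
H2-Eb1: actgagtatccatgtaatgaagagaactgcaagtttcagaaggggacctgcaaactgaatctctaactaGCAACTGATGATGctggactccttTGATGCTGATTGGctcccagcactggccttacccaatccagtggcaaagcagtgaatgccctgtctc

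The Y box CTGATTGG began 51 bases before the start in H2-Aa and 62 bases before it in H2-Eb1. GCAAC began 81 and 91 bases before the start, so that it lay upstream of the Y box in both promoters. Searched on both strands of the 250 bases before the start, CTGATTGG was in 3.83% of all 32851 windows, GCAAC in 29.9%, TGACGTCA in 1.55% and TGATG in 34.5%. The last 2 motifs can overlap by 2 bases, as in H2-Aa, where TGATG lies on the strand opposite the gene, and TGACGTCA reads the same on both strands. Of the related class II genes, H2-Oa and H2-Eb2 also held CTGATTGG, and H2-DMa, H2-DMb1, H2-DMb2 and H2-Ob held only its final letters ATTGG, which were in 33.8% of windows. The 4 other genes with a window, Jchain, Cd79a, Cd3e and Ptprc, held no CTGATTGG.

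Between 23584609 and 57430113 reads were counted on genes in each aged library, and a count of 3 in the smallest of them equals 0.127 CPM (counts per 1000000 counts). Kidney markers summed to between 10489 and 26302 CPM in kidney libraries and to at most 18.6 CPM elsewhere. Heart markers summed to at least 55882 CPM in heart libraries and at most 323 CPM elsewhere, and brain markers to at least 11890 CPM in brain libraries and at most 180 CPM elsewhere. CPM values below are scaled by edgeR's TMM factors within each tissue, and tests are edgeR's quasi-likelihood tests, adjusted over every gene tested in that tissue by the Benjamini-Hochberg method. A gene is called at an adjusted p-value below 0.05.

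By edgeR, 0 of the 10 members were called in each of the 3 tissues, beside 0.300% of the genes tested in kidney, 0.0205% of those in brain and 1.18% of those in heart. DESeq2 called 0, 0 and 1, the last being Cd79a, beside 2.64%, 2.55% and 5.28% of the genes it gave an adjusted p-value, and limma-voom called 0. In the kidney and the heart, all 10 members had a negative log2 fold change with Cmpd60, against 50.0% and 50.4% of all genes, and in the brain 7 of 10 did, against 48.2%. Medians of the log2 fold change over the 10 were -0.38 for kidney, -0.31 for brain and -1.09 for heart, beside medians over all tested genes that lay within 0.01 of 0. The genes share cells and vary together, so these counts are not 10 separate observations. The members, and the marker lists below, were also chosen with earlier results of these data known. The shares of all genes beside their counts are therefore a description and no test. In bulk tissue, fewer cells of a type and less RNA per cell cannot be told apart.

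**Figure D1:**
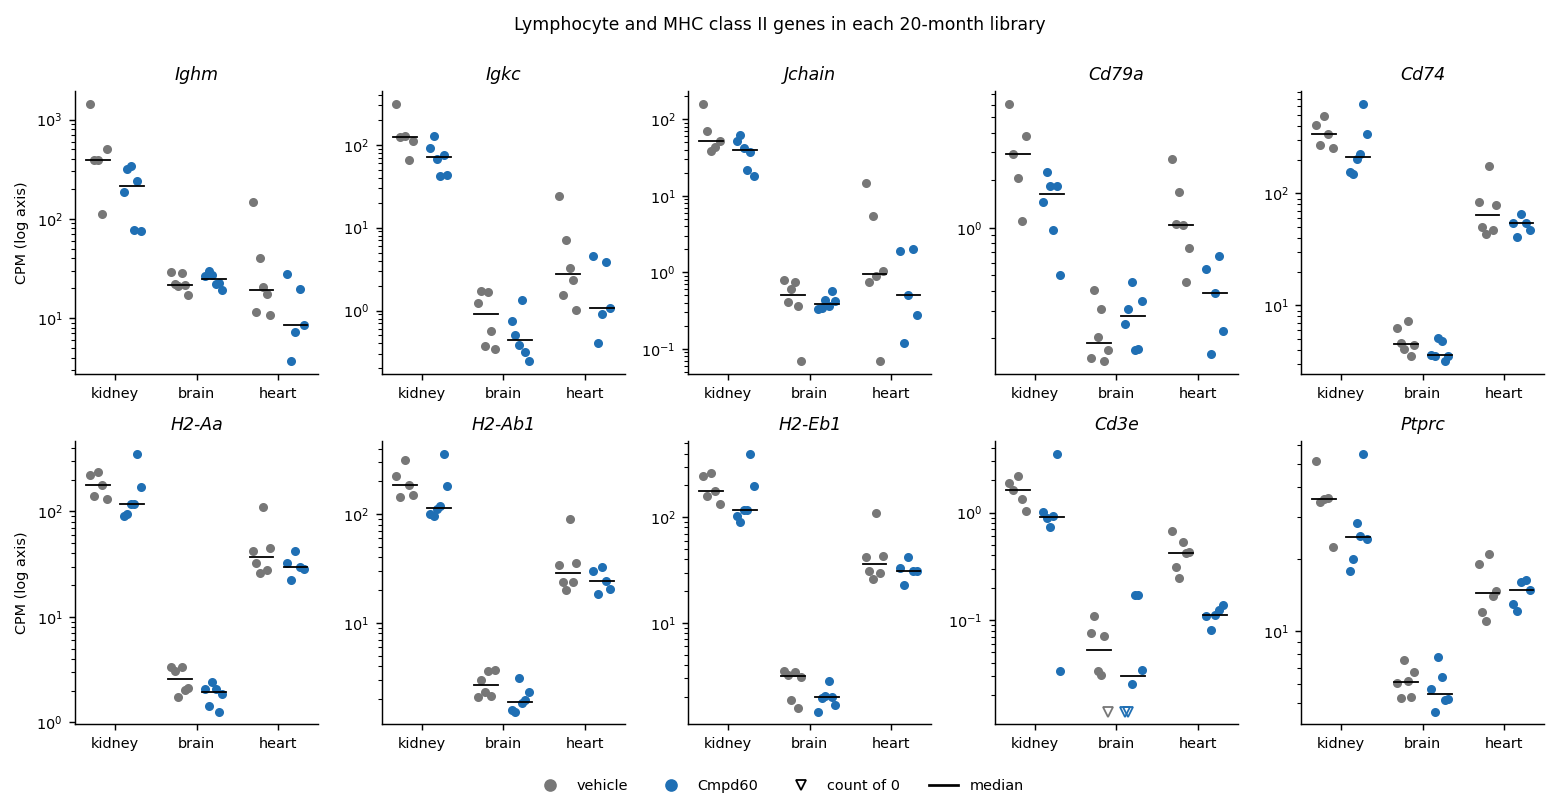
CPM of each of the 10 genes on a log axis, scaled within each tissue, for every library of kidney, brain and heart; each point is a library, bars are medians, and open triangles mark a count of 0. Cd3e in the heart is the only panel in which the Cmpd60 and vehicle points of a tissue do not overlap, with the Cmpd60 points lower, which held for 1.24% of heart genes, 1.20% of kidney genes and 0.430% of brain genes.

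In the kidney, Ighm, Cd79a, Igkc and Jchain, the genes of B cells and antibody, had the lowest log2 fold changes of the set. Ighm, the constant region of the IgM heavy chain, was at 1451, 504, 388, 387 and 113 CPM in the 5 vehicle mice. In the 6 Cmpd60-treated mice it ranged from 74.6 to 341 CPM, with a median of 214 CPM. Every Cmpd60-treated kidney lay below the vehicle median, the groups overlapped, and vehicle replicate 45 alone lay far above the rest. The means were 206 ± 115 CPM (SD, n = 6) and 569 ± 514 CPM (SD, n = 5). The log2 fold change was -1.46 (SE 0.52, unadjusted p = 0.0139 and adjusted p = 0.297 in edgeR).

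Igkc, the constant region of the kappa light chain, was at 314, 126, 125, 111 and 65.1 CPM in vehicle kidneys and between 41.8 and 129 CPM in Cmpd60-treated ones. Its log2 fold change was -0.99 (SE 0.35, adjusted p = 0.294 in edgeR). Jchain was at 161, 69.9, 51.9, 43.1 and 38.9 CPM with vehicle, and between 18.2 and 62.4 CPM with Cmpd60, with a log2 fold change of -0.90 (SE 0.37, adjusted p = 0.382 in edgeR). The highest value of all 3 genes was that of the same vehicle kidney, replicate 45.

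Cd79a, the signalling chain of the B cell receptor, rests on 15 to 196 reads a library. In vehicle kidneys it was at 6.10, 3.79, 2.91, 2.08 and 1.11 CPM, and its 6 values with Cmpd60 ran from 0.503 to 2.25 CPM. The log2 fold change was -1.12 (SE 0.42, adjusted p = 0.317 in edgeR). Ighm, Igkc, Jchain and Cd79a were the 4 members with an unadjusted p-value below 0.05, each lower, beside 5.63% of all 20698 kidney genes tested in that direction and 0.300% called in either direction.

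The class II genes of the kidney followed another library. H2-Ab1, the beta chain of I-A, was at 312, 223, 185, 150.8 and 144.02 CPM in vehicle kidneys. With Cmpd60, 4 kidneys lay between 95.3 and 118 CPM, below every vehicle kidney, replicate 55 was at 180 CPM, and replicate 54, at 360 CPM, was above every other kidney. The log2 fold change was -0.33 (SE 0.32, adjusted p = 0.740 in edgeR). Cd74, H2-Aa and H2-Eb1 gave log2 fold changes from -0.31 to -0.20, with Cmpd60 replicate 54 highest at 636, 354 and 399 CPM.

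Cd3e, a chain of the T cell receptor complex, was at 2.19, 1.90, 1.63, 1.34 and 1.03 CPM in vehicle kidneys. In the Cmpd60-treated kidneys it was at 3.54 CPM in replicate 54, between 0.739 and 1.01 CPM in 4 others and at a single read, 0.0335 CPM, in replicate 55. Thus 5 of the 6 Cmpd60-treated kidneys lay below every vehicle kidney and the sixth lay above all of them. Ptprc, which encodes the pan-leukocyte antigen CD45, ranged from 17.9 to 55.3 CPM with Cmpd60 and from 22.5 to 51.6 CPM with vehicle (log2 fold change -0.34, SE 0.26, adjusted p = 0.660 in edgeR).

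Other chains of the T cell receptor complex did not track Cd3e closely in replicates 49, 53 and 55. In replicate 55, with 1 read of Cd3e, 59 reads fell on Trac, the constant region of the receptor alpha chain, 34 on Cd3g, 4 on Cd3d, 1 on Cd247 and 0 on Trbc2. These counts come from kidneys with fewer genes detected than the rest. Replicates 49, 53 and 55 had a read on 20069, 19385 and 18512 genes, and the other 8 kidneys on 21832 to 23062, with totals within the same range. Vehicle replicate 49 had 0 reads of Cd3d beside 39 of Cd3e and 105 of Trbc2, and Cmpd60 replicate 53 had 0 reads of Cd247 and of Trbc1. Trbc1 and Trbc2 are near-identical, and reads that fit both can be lost or split, so their counts are uncertain. Cmpd60 replicate 54 was the highest kidney for Cd3e, with 125 reads, and for each of these other chains. It had 127 reads of Cd3d, 104 of Cd3g, 90 of Cd247, 156 of Trac, 80 of Trbc1 and 116 of Trbc2.

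Cd3e had a log2 fold change of -0.43 in the kidney (SE 0.59, adjusted p = 0.834 in edgeR), which was -0.16 without replicate 55 and -1.16 without replicate 54. The count of kidney members with a p-value below 0.05 rested on few libraries. Without vehicle replicate 45 it fell from 4 to 0, with log2 fold changes of -0.75 for Ighm and -0.51 for Igkc. Without Cmpd60 replicate 54 it rose to 10 of 10, with log2 fold changes from -0.74 to -0.61 for the class II genes, and the lowest adjusted p-value among the members was still 0.182 in edgeR for the leave-out of that library. Without both libraries the 4 class II genes and Ptprc had p-values below 0.05, and all 10 fold changes remained negative. Without replicates 49, 53 and 55, those with the fewest genes detected, the count was 0, all 10 were still negative, and Ighm was at -1.11 and Cd3e at -0.16. The part of the lower number of detected genes in these values was not tested otherwise. Shares of all genes with an unadjusted p-value below 0.05 are not given for the leave-out fits, here and below. The counts from those fits therefore have no baseline beside them.

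The 2 kidneys differed in what else they held. Vehicle replicate 45 had the highest sum of the 12 B cell markers, 28.02 CPM beside 19.1 CPM in the next kidney, and these sums ran from 10.8 CPM upward with vehicle and from 6.88 to 18.6 CPM with Cmpd60. Cmpd60 replicate 54 had the highest sum of the 19 T cell markers, 77.6 CPM beside 47.3 CPM in the next kidney, and the highest sums of cytotoxic cell markers (24.7 CPM), macrophage markers (853 CPM), dendritic cell markers (138 CPM) and adipose tissue markers (433 CPM). All 12 B cell and all 19 T cell markers had more than 3 reads in at least 1 kidney. The part of these cells in the fold changes was not tested.

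**Figure D2:**
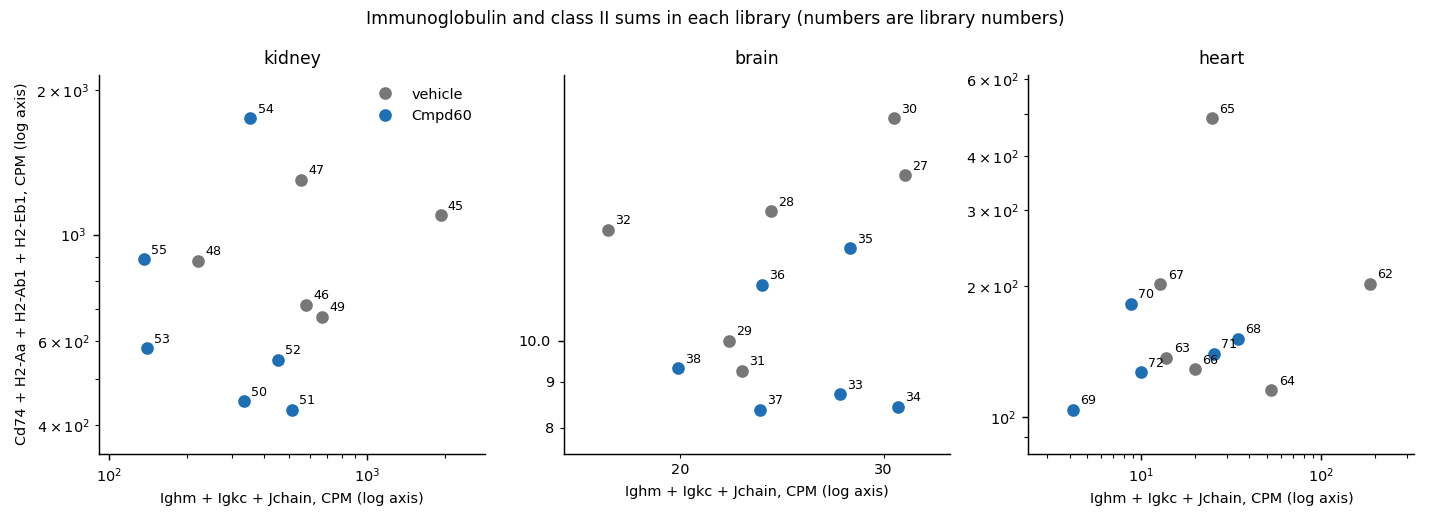
Sum of Ighm, Igkc and Jchain (horizontal) against the sum of Cd74, H2-Aa, H2-Ab1 and H2-Eb1 (vertical) in each library, in CPM on log axes, with library numbers beside the points. The kidney and the heart each have a vehicle library far to the right (45 at 1926 CPM and 62 at 187 CPM) that is not the library with the highest class II sum (54 at 1749 CPM and 65 at 488 CPM).

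In the heart, the 5 lymphocyte genes had log2 fold changes from -1.98 to -1.57, none of which passed the adjusted test in edgeR. Cd3e ranged from 0.248 to 0.677 CPM in the 6 vehicle hearts, with a median of 0.424 CPM, and was at 0.140, 0.124, 0.111, 0.1103 and 0.0802 CPM in the 5 Cmpd60-treated hearts. Every Cmpd60-treated heart lay below every vehicle heart, which held in that direction for 1.24% of all 19452 heart genes tested. The values rest on 2 to 5 reads per Cmpd60 library and 6 to 18 reads per vehicle library. The log2 fold change was -1.91 (SE 0.50), with an adjusted p of 0.0755 in edgeR, which was 0.0464 among genes with at least 10 counts in 3 libraries and up to 0.255 over the 16 alternatives that gave one.

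The other chains of the T cell receptor complex overlapped between the heart groups. Cd3g had 4 to 17 reads with Cmpd60 and 5 to 21 with vehicle (log2 fold change -0.42, SE 0.48, adjusted p = 0.778 in edgeR), and Trac had 8 to 32 and 8 to 52 reads (-0.55, SE 0.43, adjusted p = 0.634 in edgeR). Ptprc, present on all leukocytes, averaged 14.5 ± 1.89 CPM (SD, n = 5) in Cmpd60-treated hearts and 15.3 ± 3.97 CPM (SD, n = 6) in vehicle hearts. Its log2 fold change of -0.08 (SE 0.15, adjusted p = 0.883 in edgeR) turned to 0.03 without vehicle replicate 65.

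Cd79a ranged from 0.453 to 2.71 CPM in vehicle hearts, with a median of 1.05 CPM, and was at 0.663, 0.552, 0.389, 0.223 and 0.160 CPM with Cmpd60. All 5 Cmpd60-treated hearts lay below the vehicle median and 3 lay below every vehicle heart. The log2 fold change was -1.67 (SE 0.48), with an adjusted p-value of 0.105 in edgeR, 0.0144 in DESeq2 and up to 0.282 over the alternatives. Of the 17 alternatives, DESeq2 was the only one that called it.

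Ighm ranged from 10.7 to 148.6 CPM in vehicle hearts, with a median of 19.1 CPM, and was at 28.05, 19.5, 8.57, 7.31 and 3.65 CPM with Cmpd60. Igkc ranged from 1.03 to 24.0 CPM and Jchain from 0.0697 to 14.7 CPM in vehicle hearts, again with replicate 62 at the top. Their log2 fold changes were -1.63 for Ighm (SE 0.65, adjusted p = 0.271 in edgeR), -1.57 for Igkc (SE 0.75) and -1.98 for Jchain (SE 0.93). Without vehicle replicate 62 these were -0.58, -0.47 and -0.75. The lowest Jchain value, 2 reads, was that of vehicle replicate 66. That heart had a read on 17809 genes, and the other hearts on 19556 to 21593. The part of this lower number in the heart values was not tested. Cd3e, Cd79a, Ighm and Jchain were the 4 heart members with an unadjusted p-value below 0.05, all lower, beside 6.22% of all genes tested in that direction and 1.18% called in either direction.

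Class II genes of the heart were dominated by vehicle replicate 65. H2-Ab1 was at 89.8 CPM there, between 19.9 and 35.7 CPM in the other vehicle hearts and at 32.3, 30.3, 24.6, 20.5 and 18.4 CPM with Cmpd60. The other vehicle hearts overlapped the Cmpd60-treated ones. The 4 class II genes had log2 fold changes from -0.61 to -0.56, with adjusted p-values from 0.378 to 0.449 in edgeR, and from -0.21 to -0.11 without replicate 65. Leaving out vehicle replicates 62 and 65 together left Cd3e (-1.61) and Cd79a (-1.30) as the 2 members with an unadjusted p-value below 0.05, and put the class II genes between -0.08 and -0.03. Leaving out each heart in turn gave between 2 such members, Cd3e and Cd79a, without replicates 62, 69 or 72, and 9 without replicate 63. Cd3e and Cd79a were among them in every one of these 11 fits. The share of all genes at that cutoff in these fits is not given.

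Vehicle replicates 62 and 65 differed in other gene groups as well. Replicate 62 had the highest sum of neutrophil markers, 129 CPM beside 59.5 CPM in the next heart, and the highest sums of B cell markers (18.5 CPM) and adipose tissue markers (847 CPM). The 3 hearts with the highest adipose sums, replicates 62, 64 and 68 at 847, 837 and 835 CPM, were also those with the 3 highest immunoglobulin sums, 187, 53.0 and 34.6 CPM, whereas in the kidney the highest adipose sums, 433 and 365 CPM, went with immunoglobulin sums of 352 and 221 CPM. This was not particular to adipose markers. The same 3 hearts had the highest thymus marker sums, 9.16, 7.47 and 6.34 CPM, beside 5.95 CPM in the next heart. They also had the highest neutrophil marker sums, 129, 13.2 and 59.5 CPM, beside 12.1 CPM in the next heart. Replicate 65 had 1848 CPM of MHC class I pathway genes and 1004 CPM of interferon-gamma response genes, beside at most 1159 and 682 CPM in the other hearts. The part of these groups in the fold changes was not tested.

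**Figure D3:**
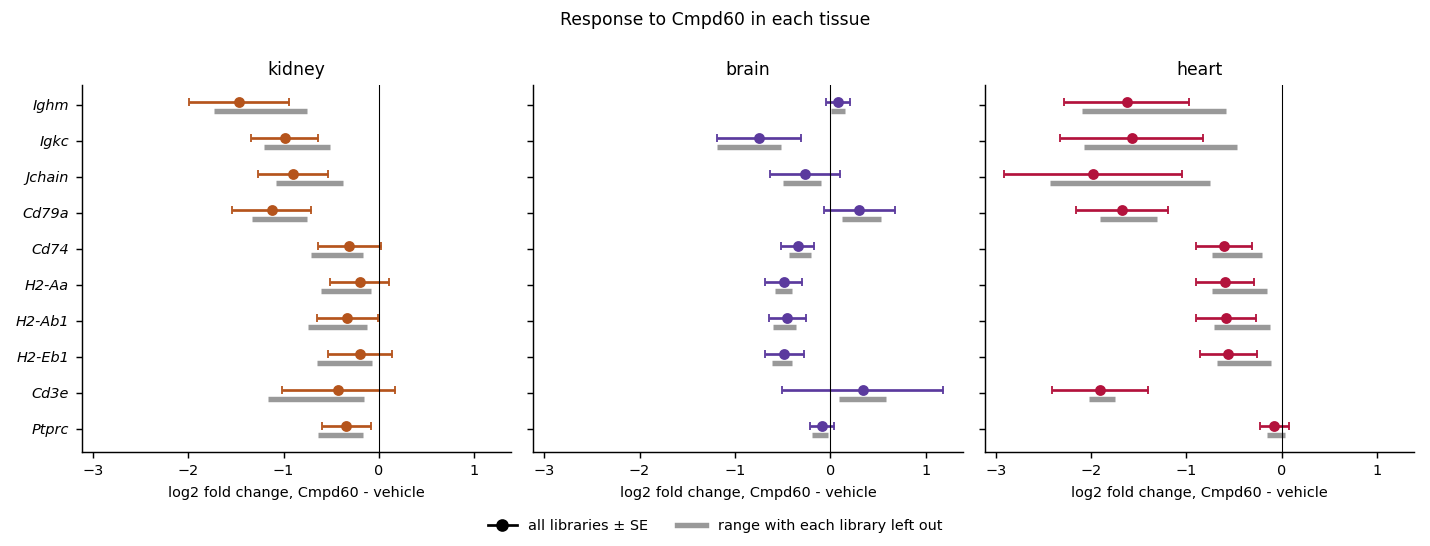
Log2 fold change of each gene between Cmpd60 and vehicle (point, with its standard error from edgeR) and the range of fold changes when each library is left out in turn (grey bar), in kidney, brain and heart. The kidney and heart points are all at or below -0.08, and among the 3 tissues only Ptprc in the heart has a grey bar that crosses 0.

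In the brain, the 3 class II chain genes had the lowest p-values of the set. H2-Aa ranged from 1.26 to 2.39 CPM with Cmpd60, with a median of 1.95 CPM, and from 1.73 to 3.37 CPM with vehicle, with a median of 2.58 CPM. All 6 Cmpd60-treated brains lay below the vehicle median, 2 lay below every vehicle brain, and the groups overlapped. H2-Ab1 averaged 2.05 ± 0.585 CPM (SD, n = 6) in Cmpd60-treated and 2.82 ± 0.729 CPM (SD, n = 6) in vehicle brains, and H2-Eb1 averaged 1.99 ± 0.4659 and 2.78 ± 0.841 CPM (SD, n = 6 each).

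The log2 fold changes in the brain were -0.49 for H2-Aa (SE 0.20), -0.45 for H2-Ab1 (SE 0.19), -0.48 for H2-Eb1 (SE 0.20) and -0.34 for Cd74 (SE 0.17), with adjusted p-values from 0.284 to 0.382 in edgeR. H2-Aa, H2-Ab1 and H2-Eb1 were the 3 members with an unadjusted p-value below 0.05, beside 6.47% of all 24438 genes tested in that direction and 0.0205% called in either direction. Leaving out vehicle replicate 30 brought the 3 to 0, other single libraries left 1 to 4 members, and H2-Aa stayed between -0.58 and -0.40 whichever library was left out. The lists of microglia (10 genes) and of border macrophages (8 genes), resident cells of the brain, had medians of 0.02 and -0.03 there and 0 called genes each, with sums of 275 to 324 CPM and 28.9 to 31.9 CPM with Cmpd60 and of 285 to 316 CPM and 28.4 to 33.3 CPM with vehicle.

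Several lymphocyte genes had few reads in the brain. Cd3e had 0 to 7 reads per library, and was at 0 in 3 of 12 libraries. Cd79a had 4 to 20 reads, Igkc 10 to 55 and Jchain 2 to 24. Of the other T cell receptor genes, Trbc2 had 48 to 113 reads and Trac 9 to 56, while Trbc1 had 0 to 2 and Cd3g 0 to 5. Igkc ranged from 0.243 to 1.34 CPM with Cmpd60 and from 0.341 to 1.73 CPM with vehicle (log2 fold change -0.75, SE 0.45, adjusted p = 0.476 in edgeR), and the groups overlapped. Cd3e and Cd79a had positive log2 fold changes of 0.34 (SE 0.84) and 0.30 (SE 0.37), and that of Cd3e was -0.23 in limma-voom.

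Ighm was well covered in the brain, with 497 to 1110 reads a library. It averaged 24.5 ± 3.999 CPM (SD, n = 6) in Cmpd60-treated brains and 23.2 ± 4.71 CPM (SD, n = 6) in vehicle brains, and its log2 fold change was 0.08 (SE 0.12, adjusted p = 0.824 in edgeR). The coefficient of variation between vehicle mice was 20.3% in the brain, 90.3% in the kidney and 129% in the heart. The number of Ighm reads per Igkc read ran from 1.73 to 5.02 in the kidney (median 3.08, n = 11), from 5.00 to 10.4 in the heart (median 7.51, n = 11) and from 12.6 to 79.3 in the brain (median 43.8, n = 12). Both genes are compared with themselves across tissues here, so their lengths cancel, and the brain range did not overlap the others.

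**Figure D4:**
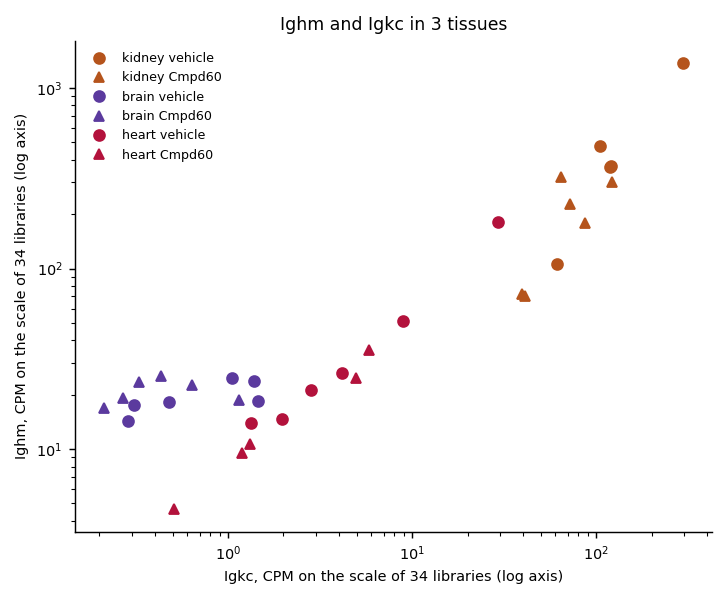
Ighm against Igkc in 34 aged libraries, in CPM scaled over all of them, on log axes, with colour for tissue, circles for vehicle and triangles for Cmpd60. Kidney and heart libraries form a rising band, and the 12 brain libraries lie above its low end, with Ighm between 14.3 and 25.3 CPM at any level of Igkc.

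Levels were compared between tissues in a single edgeR fit of the 34 libraries, as if each came from another mouse. In vehicle mice, all 10 genes were lower in the brain than in the kidney, beside 32.8% of the 27105 genes tested, and all 10 were lower in the brain than in the heart, beside 28.9%. In the kidney, 9 of 10 were higher than in the heart, beside 31.1%, and the exception was Cd79a (log2 difference 0.93, SE 0.41, adjusted p = 0.0507). By this fit the order was kidney, heart, brain for 9 genes, while for Cd79a the kidney and heart difference narrowly missed the threshold. With limma-voom, Ighm (-0.67, adjusted p = 0.425) and Jchain (-2.14, adjusted p = 0.160) were no longer called between brain and heart, and Cd79a was called between kidney and heart. On this scale, scaled over all 34 libraries, Cd74 was at 335 ± 94.1 CPM (SD, n = 5) in vehicle kidney, 101 ± 65.2 CPM (SD, n = 6) in heart and 4.23 ± 1.22 CPM (SD, n = 6) in brain.

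The distance between tissues differed among the genes. Between brain and kidney it was widest for Igkc (log2 difference -7.40, SE 0.68) and Jchain (-7.36, SE 0.74), -6.33 to -6.29 for the 4 class II genes, -4.79 (SE 0.61) for Ighm and narrowest for Ptprc (-2.72, SE 0.22). Between kidney and heart it was widest for Igkc (4.14, SE 0.56) and Jchain (3.91, SE 0.59), and 1.52 to 2.00 for the class II genes. All of these had adjusted p-values of at most 4.87e-05 in edgeR, and between kidney and heart Ptprc differed least (0.83, SE 0.21, adjusted p = 0.000993).

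The response to Cmpd60 was also compared between tissues in that fit. Among the 10 genes, 0 were called for kidney against heart, brain against heart, or kidney against brain, where 0.350%, 0.0517% and 0.0885% of all genes were called. At an unadjusted p-value below 0.05 there were 0 members for kidney against heart, beside 5.14% of genes higher and 6.59% lower. There were 3 for brain against heart, all higher, beside 4.79% higher and 4.30% lower, and 2 for kidney against brain, both lower, beside 6.18% lower and 3.81% higher. The largest of these differences was between brain and heart for Cd3e (log2 difference 2.26, SE 1.07, adjusted p = 0.535 in edgeR), on few reads, followed by Cd79a (1.99, SE 0.66, adjusted p = 0.321 in edgeR) and Ighm (1.70, SE 0.78, adjusted p = 0.514 in edgeR). The kidney and heart responses of Ighm differed by 0.13 with a standard error of 0.78, so that a wide difference either way was within the error.

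To describe how the genes moved together from mouse to mouse, 8 pairs were correlated in each tissue on log2(CPM + 1), 24 relations in all, with two-sided permutation tests of 100000 resamples. After adjustment, 13 relations had a p-value below 0.05 by Pearson's r, of which 6 were in kidney, 0 in brain and 7 in heart. H2-Aa and H2-Ab1 had r = 0.98 and rho = 0.97 in the kidney and r = 0.99 and rho = 0.95 in the heart (n = 11 each, unadjusted permutation p = 1e-05, the smallest possible, and adjusted p = 4.8e-05). Without the 2 libraries farthest from the median these were 0.98 and 0.93. Cd74 followed H2-Ab1 as closely, with r = 0.99 in the kidney and 0.98 in the heart. Ptprc with H2-Ab1 had r = 0.81 in the kidney and 0.77 in the heart (adjusted permutation p = 0.0057 in each). Without the 2 farthest libraries these fell to 0.69 and 0.54 (adjusted permutation p = 0.0863 and 0.202).

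The immunoglobulin genes moved together too. Igkc and Ighm had r = 0.93 and rho = 0.82 in the kidney (n = 11, permutation p = 9e-05, adjusted p = 0.00033) and r = 0.99 and rho = 0.98 in the heart (n = 11, permutation p = 1e-05, adjusted p = 4.8e-05), and 0.83 and 0.96 without the 2 farthest libraries. Cd79a followed Igkc with r = 0.92 in the kidney and 0.86 in the heart, where r fell to 0.50 (adjusted permutation p = 0.227) without the 2 farthest libraries, so that relation rests on those. Igkc with Jchain in the heart fell from 0.93 to 0.70 in the same way (adjusted permutation p = 0.0863).

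Cd3e with H2-Ab1 in the kidney had r = 0.63 (n = 11, permutation p = 0.0348, adjusted p = 0.0596) and rho = 0.73 (permutation p = 0.0138, adjusted p = 0.0290), and r = 0.89 without the 2 farthest libraries. Cd79a with Cd3e had r = 0.48 in the kidney and 0.71 in the heart, and the heart value became 0.33 (adjusted permutation p = 0.352) once each treatment group was centred on its own mean. Without the 2 farthest libraries the kidney value was 0.08 and the heart value 0.67 (adjusted permutation p = 0.852 and 0.112). In the brain, the highest r was 0.56, for Cd74 with H2-Ab1 (n = 12, rho = 0.43, permutation p = 0.0582, adjusted p = 0.0877).

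The genes most like the set were found by Pearson's r with the mean of the 10 standardized log2(CPM + 1) values, over genes with a mean of at least 1 CPM. In the kidney, over 14418 genes and 11 libraries, these were Wdfy4, a gene of dendritic cells and B cells (r = 0.96), Il18r1, a receptor for interleukin 18 (0.96), Slamf7 (0.96), Rhoh, a GTPase of blood cells (0.94), and Cd37, a tetraspanin of B cells (0.93). In the heart, over 13365 genes, they were Dgkz (0.90), Cd83, an activation marker of dendritic cells (0.90), Cyb561d2 (0.88), Sf3b5 (0.88) and Shpk (0.88). In the brain, over 15418 genes and 12 libraries, they were Gm6382 (0.92), Tmbim4 (0.92), Colgalt2 (0.90), Gm10136 (0.89) and Arfip1 (0.89). These are the top of long lists, given as a description.

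**Figure D5:**
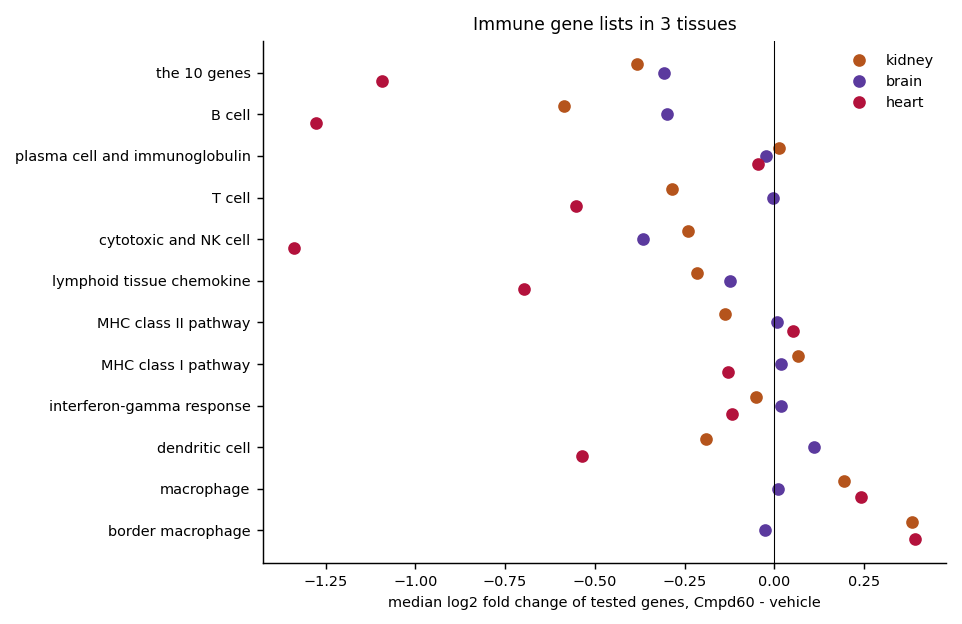
Median log2 fold change between Cmpd60 and vehicle over the tested genes of each immune gene list, in kidney, brain and heart, with the 10 genes at the top. In the heart, the B cell list (-1.28) and the cytotoxic and NK cell list (-1.34) lie farthest below 0, and the macrophage (0.24) and border macrophage (0.39) lists lie above it. Without hearts 62 and 65, not drawn, the B cell median was -0.85 and the cytotoxic and NK cell median -0.89. The cytotoxic and NK cell markers together summed to at most 4.10 CPM in any heart.

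Of 12 B cell markers other than the members, edgeR and limma-voom called 0 in each tissue, and DESeq2 called 3 in the heart, Blk, Pax5 and Cd79b, all lower, where it called 746 genes in all (5.28%). In the heart 11 of the 12 had negative log2 fold changes, with a median of -1.28, and 7 had an unadjusted p-value below 0.05, all lower, beside 50.4% and 6.22% of all heart genes. Without vehicle replicates 62 and 65, the 7 became 5 and the median was -0.85. Blk, a kinase of the B cell receptor, was at 0.305 CPM with Cmpd60 and 1.03 CPM with vehicle (log2 fold change -1.74, SE 0.42, adjusted p = 0.0559 in edgeR). Pax5, the transcription factor of B cell identity, was at 0.414 and 1.41 CPM (log2 fold change -1.75, SE 0.43, adjusted p = 0.0628 in edgeR). In the kidney 2 of 12 and in the brain 3 of the 11 tested had such a p-value, all lower. Of all genes tested, 5.63% in the kidney and 6.47% in the brain did in that direction.

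Of 18 markers of plasma cells and other immunoglobulins, 12 could be matched. The immunoglobulin genes Igha, Ighg2b, Ighg3, Ighd, Iglc1 and Iglc3 could not. In kidney, brain and heart 12, 10 and 11 were tested. By edgeR 0 were called, with 0, 2 and 1 at an unadjusted p-value below 0.05, and the medians were 0.01, -0.02 and -0.05. In the brain 1 was higher and 1 lower, beside 6.47% of all genes lower. The 1 in the heart was higher, beside 7.28% of all genes. Ighg2c, a heavy chain of IgG, had log2 fold changes of 0.58 (SE 0.67) in the kidney and -0.23 (SE 0.14) in the heart. Xbp1, a transcription factor of secretory cells, was at 86.4 CPM with Cmpd60 and 70.6 CPM with vehicle in the heart (log2 fold change 0.29, SE 0.08, adjusted p = 0.109 in edgeR). The whole list summed to 157 to 190 CPM with Cmpd60 and 158 to 179 CPM with vehicle there. In vehicle brains it summed to 172 to 195 CPM, where Igkc was at most 1.73 CPM. The part of plasma cells in these sums was not tested.

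Of the 19 T cell markers, 19, 17 and 19 were tested in kidney, brain and heart and 0 were called by edgeR, DESeq2 or limma-voom. In that order 14, 9 and 17 had negative log2 fold changes, beside 50.0%, 48.2% and 50.4% of all genes, with medians of -0.29, -0.0028 and -0.55. In the brain, the list is dominated by Thy1, which neurons also express. In the heart 3 had an unadjusted p-value below 0.05, all lower, beside 6.22% of all genes: Zap70, Cd8a and Icos. Without kidneys 45 and 54, the kidney median was -0.89 and 7 of the 19 had an unadjusted p-value below 0.05, all lower, and without kidneys 49, 53 and 55 these were -0.02 and 1. Of the cytotoxic and NK cell markers, 12, 5 and 9 were tested and 0 were called by any of the 3 tools. Before adjustment 0, 1 and 1 were below 0.05, those in brain and heart lower, beside 6.47% and 6.22% of all genes. In the heart 9 of 9 were negative, beside 50.4% of all heart genes. Reads were few there, and the 12 markers together summed to 0.722 to 2.24 CPM with Cmpd60 and 1.77 to 4.10 CPM with vehicle.

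Among 14 matched genes of lymphoid tissue chemokines and their receptors, 11 were tested in each tissue and 1 was called. Cxcr4, a chemokine receptor of lymphocytes and other cells, fell in the heart from 4.87 ± 0.485 to 3.00 ± 0.399 CPM (SD, n = 6 and 5, log2 fold change -0.70, SE 0.14, adjusted p = 0.0280 in edgeR), where 1.18% of all genes were called. It was called in 10 of its 17 alternatives, over which the adjusted p-value ranged from 0.000542 to 0.0810. In the kidney and the brain 0 were called.

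Of 20 other genes of the MHC class II pathway, 1 was called. Lgmn, the lysosomal protease legumain, rose in the heart from 62.1 ± 5.84 to 79.4 ± 7.99 CPM (SD, n = 6 and 5, log2 fold change 0.35, SE 0.08, adjusted p = 0.0430 in edgeR), where 1.18% of all genes were called. It was called in 7 of the 17 alternatives, over which the adjusted p-value ranged from 0.00252 to 0.127. Its log2 fold change in the kidney was 0.31 (SE 0.11, adjusted p = 0.294 in edgeR). Rfx5, which binds the X box, had a log2 fold change of -0.40 in the heart (SE 0.15, adjusted p = 0.228 in edgeR). The list's medians were -0.14, 0.01 and 0.05 in kidney, brain and heart.

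Of 14 matched genes of the MHC class I pathway, edgeR called 0 and DESeq2 called 1, Psmb10, in brain and in heart. Psmb10, a subunit of the immunoproteasome, had log2 fold changes of -0.58 (SE 0.15, adjusted p = 0.0674 in edgeR) in the heart and -0.34 (SE 0.08, adjusted p = 0.113 in edgeR) in the brain. Of 17 interferon-gamma response genes, 17, 14 and 16 were tested, 0 were called by any of the 3 tools and 1, 1 and 0 were below 0.05 before adjustment. The 1 in the kidney was lower, beside 5.63% of all kidney genes, and the 1 in the brain was higher. Of 12 dendritic cell markers, 12, 10 and 12 were tested and edgeR called 0, with 2, 0 and 2 at an unadjusted p-value below 0.05. In the kidney 1 was higher and 1 lower, beside 5.63% of all genes lower. In the heart 1 was higher and 1 lower too, beside 7.28% of all genes higher and 6.22% lower. Cd209a, a lectin of dendritic cells that DESeq2 called in the kidney, was at 0.630 CPM with Cmpd60 and 2.60 CPM with vehicle in the kidney (log2 fold change -2.03, SE 0.50, adjusted p = 0.121 in edgeR). Medians of these 3 lists stood between -0.54 and 0.11.

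Of 15 macrophage markers, edgeR and limma-voom called 0 in each tissue and DESeq2 called 3 in the heart. Log2 fold changes were positive for 14 in the heart and 14 in the kidney, with medians of 0.24 and 0.19. Of all genes, 50.4% in the heart and 50.0% in the kidney had negative ones. Without kidneys 45 and 54 the kidney median was 0.02, with 6 of 15 negative. Without kidneys 49, 53 and 55 it was 0.04, with 4 of 15 negative. In the heart 8 of the 15 had an unadjusted p-value below 0.05, all higher, beside 7.28% of all genes in that direction, and 2 were called once vehicle replicates 62 and 65 were left out. Of 8 border macrophage markers, 2 rose in the heart, F13a1 (log2 fold change 0.66, SE 0.11, adjusted p = 0.0150 in edgeR) and Lyve1 (0.56, SE 0.12, adjusted p = 0.0329 in edgeR). Of all heart genes tested, 1.18% were called in either direction. Over the 17 alternatives F13a1 was called in 16 (adjusted p up to 0.0544) and Lyve1 in 10 (up to 0.106). In the kidney Cbr2 rose (1.27, SE 0.18, adjusted p = 0.00473 in edgeR), where 0.300% of all genes were called in either direction.

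Lists of other cells were kept to see what else the tissues held. Neutrophil (5, 9 and 6 genes tested in kidney, brain and heart), red blood cell (6 in each), adipose tissue (8, 4 and 8), thymus (4, 5 and 2) and microglia (10 in each) markers gave 0 calls by any of the 3 tools, with at most 2 of a list at an unadjusted p-value below 0.05 in a tissue. Of the choroid plexus list, Ttr, the thyroid hormone carrier transthyretin, fell in the kidney (log2 fold change -1.43, SE 0.21, adjusted p = 0.00679 in edgeR). The marker lists of each tissue in its own libraries gave edgeR counts of 0 of 9 in the kidney, where its sum was 10489 to 22092 CPM with Cmpd60 and 21015 to 26302 CPM with vehicle, 0 of 10 in the heart and 0 of 9 in the brain, with 2, 1 and 5 at an unadjusted p-value below 0.05. Those in kidney and heart were lower, beside 5.63% and 6.22% of all genes. In the brain 4 were higher and 1 lower, beside 6.47% of all genes lower.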

How the data were processed

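RNA of aged mouse kidney, brain and heart and of younger brain was isolated with oligo-dT beads and sequenced from a directional kit. The authors trimmed reads with Trimmomatic 0.32, aligned them with HISAT2 2.1.0 and counted them with HTSeq 0.11.0, and deposited raw read counts for 54232 Ensembl genes per library. Counting took read direction into account, per the study's methods. The genome build and the annotation release used for counting are not given in the sources used here. The 5 summary lines of each file, 16.6% to 22.1% of reads in aged libraries, were left out. Symbols were matched to 32651 identifiers, 2667 of them updated with RefSeq synonyms, and 10 list symbols (Igha, Ighg2b, Ighg3, Ighd, Iglc1, Iglc3, Psmb9, Ccl21a, Hbb-bs and Hbb-bt) were unmatched.

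Groups follow sample titles and source names. For kidney, another field names the reverse treatment and was set aside. Each tissue was fitted in edgeR 4.0.16 (R 4.3.3) with TMM factors, keeping genes that exceeded 2 counts in 3 or more of the libraries fitted, with the quasi-likelihood test and Benjamini-Hochberg adjustment, and the 34 aged libraries were fitted together for tissue comparisons. Standard errors were derived from the F statistics. The tests were checked on simulated counts. Alternatives were DESeq2 1.42.0, limma-voom (limma 3.58.1), DESeq2 size factors in edgeR, no filter, at least 10 counts in 3 libraries, and each library left out. Leaving out kidneys 45 and 54, kidneys 49, 53 and 55, or hearts 62 and 65, was chosen after seeing the data. Correlations were tested by permuting libraries. Reads carry no molecular identifiers, so the floor of 3 counts covers counting error only.

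The members and lists were chosen with earlier results of these data known. All 10 members are named. Of each list, up to 4 called genes per tissue are named, or up to 2 by smallest p-value, and the 5 most similar genes per tissue. Ighg2c, Cd3g, Trac and the other receptor chains were named after their values were seen.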

Additional observations from a re-analysis of the deposited data

Results flagged for a closer look

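Of 60 groups of libraries (10 genes, 3 tissues, 2 treatments), 14 had a library whose gap to its neighbour was above Dixon's 95% critical value. That limit flags about 1 in 20 groups when values are normally distributed. The gaps were taken on CPM without logs, where such a distribution was not tested, so 14 cannot be weighed against that rate. All 14 were the highest library of their group, and 4 libraries account for them. In the kidney, vehicle replicate 45 stood apart for Igkc (314 CPM) and Jchain (161 CPM), while its Ighm, at 1451 CPM, did not pass the limit. Cmpd60 replicate 54 stood apart for H2-Aa (354 CPM), H2-Ab1 (360 CPM), H2-Eb1 (399 CPM), Cd3e (3.54 CPM) and Ptprc (55.3 CPM).

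In the heart, vehicle replicate 62 stood apart for Ighm (148.6 CPM), Igkc (24.0 CPM) and Jchain (14.7 CPM), and vehicle replicate 65 for Cd74 (178 CPM), H2-Aa (110 CPM), H2-Ab1 (89.8 CPM) and H2-Eb1 (111 CPM). No brain library was set apart by this measure. The genes of a library are not independent, so 14 is not a count of separate events.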

How the results depend on the processing

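Of 516 fold changes of the 10 genes recomputed under alternatives, 512 kept their direction. The 4 that reversed were Jchain (0.00090) and Cd3e (-0.23) in the brain under limma-voom, and Ptprc in the heart, whose range with each library left out was -0.15 to 0.03 and which was 0.16 without replicates 62 and 65; the cause was not tested. Members called stayed at 0 in kidney and brain, and in the heart became 1 with DESeq2 (Cd79a) and 1 with at least 10 counts in 3 libraries (Cd3e). Genes called in the kidney moved from 62 to 429 with DESeq2, 94 without a filter, 20 to 131 with each library left out, 28 without replicates 45 and 54 and 42 without replicates 49, 53 and 55. In the brain they moved from 5 to 429 with DESeq2, 2 with limma-voom, 102 without a filter and 1 to 372 with each library left out. In the heart they moved from 229 to 746 with DESeq2, 36 to 247 with each library left out and 90 without replicates 62 and 65. Tissue differences kept 8 to 10 members called, the 8 being brain against heart under limma-voom, without Ighm and Jchain, and response differences 0. Correlations reversed without the 2 farthest libraries for Cd79a with Igkc (-0.0632) and Cd3e with H2-Ab1 (0.1503) in the brain. Cd3e in the brain could not be fitted with at least 10 counts in 3 libraries, nor with some libraries left out, since it failed the filter. No paired analysis was possible because the groups share no library number.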

Other observations

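The 20 brain libraries of mice aged 6 to 7 months were put on the scale of CPM of all gene counts, pooled over genotype and treatment, since the treatment of 1 library is recorded in 2 ways. Ighm ranged from 3.66 to 24.0 CPM (median 17.7 CPM), beside 16.7 to 29.7 CPM (median 22.2 CPM) in the 12 aged brains on the same scale. Igkc was at 0 in 13 of the 20 younger libraries and in 0 of the 12 aged ones, and Cd79a had more than 3 reads in 1 of the 20 and in all 12. Cd74 ranged from 0 to 12.5 CPM (median 3.12 CPM) in the younger and from 3.10 to 7.30 CPM (median 4.28 CPM) in the aged brains. The younger libraries had a read on 15044 to 24821 genes and the aged brains on 24939 to 28017, with totals of 25052335 to 55871402 and 26402957 to 57430113 counts. In the younger libraries Ptprc was at 0 in 2 and Cd74 in 1. Age, genotype, experiment and this lower number of detected genes cannot be told apart, and no test was made.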
